A study of Triticum aestivum with 10 samples.

Results

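Cold-treated leaves were compared with cold-treated shoots in a necrotic line of synthetic hexaploid wheat, a wheat rebuilt from its parents, tetraploid wheat and the wild grass Aegilops tauschii. The comparison took its means from 4 of the 10 arrays of the study, 2 for necrotic leaf and 2 for necrotic shoot. All 10 arrays entered the estimate of spread used in the tests. Of the 37826 wheat probes on each array, 32578 were tested, those that exceeded background clearly on the full pair of arrays of leaf, of shoot or of both. Necrotic leaf came from plants of the line with cold-induced hybrid necrosis, which had 3 weeks of growth at 23 °C before 12 weeks of cold at 4 °C. Necrotic shoot, a sample holding the shoot apical meristem, came from the same line after the same 3 weeks at 23 °C and 6 weeks at 4 °C. A second synthetic line without the disorder, called wild type in the labels, gave 2 leaf and 2 shoot arrays with the same weeks of cold in each tissue. Each phenotype was represented by 1 line, so that necrosis and other differences between the lines cannot be told apart. The necrotic line also gave 2 arrays of leaves taken after the 3 weeks at 23 °C, with no cold. One label calls the cold leaves seedling leaves of 3 weeks, which leaves out the weeks of cold given in the treatment text.

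Mature grass leaves are mainly photosynthetic tissue, whose cells express nuclear genes for chloroplast proteins at high levels. The shoot apex holds dividing cells that form new leaves and, in winter cereals, turns to flowering after a long cold period, a process named vernalization. In hybrid necrosis, combinations of parental alleles that are harmless apart lead to tissue death in the hybrid, and in the cold-induced kind this appears at low temperature.

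Each sample's RNA was dyed with Cy3 and read on a one-colour Agilent array. A probe's level is its log2 processed signal with the 75th percentile of that array subtracted, so that a level of 0 is that percentile and a difference of 1 is 2-fold. On the necrotic leaf arrays 30238 and 29918 probes were well above background, and on the necrotic shoot arrays 32630 and 32303. Replicates correlated across probes at r = 0.995 for necrotic leaf and r = 0.997 for necrotic shoot, and their median absolute difference was 0.0742 and 0.0733. No spot was saturated, and the 2 arrays per group limit the precision. The cold leaf arrays of both lines were on 1 slide (slide 3) and the shoot arrays of both lines on another (slide 2), and each slide had its own scan. Tissue, weeks of cold and slide therefore cannot be told apart in a leaf-shoot difference. The study's design text speaks of independent experiments, but no label says that replicates came from separate plants, and the p-values measure the spread between these samples, which may be technical. The labelled tissues could not be checked on marker genes, because 0 of 15 listed leaf and meristem marker names occurred among the probe names.

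Most of the measured transcripts differed between leaf and shoot of the necrotic line. Of the 32578 probes, 27379 (84%) passed an adjusted p of 0.05 (limma, Benjamini-Hochberg). Leaf was higher for 11366 of them (34.9%) and lower for 16013 (49.2%), as shares of the probes tested. With the added requirement of a 2-fold difference, 5438 probes (16.7%) were higher in leaf, called leaf-rich here, and 9636 (29.6%) were lower, called shoot-rich. Another 12305 probes passed the test with less than a 2-fold difference, and 5199 did not pass it. The 2 leaf arrays lay beyond both shoot arrays for 30510 probes (93.7%). In pieces of tissue such as these, fewer cells of a type and less RNA per cell cannot be told apart.

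The balance between leaf-rich and shoot-rich probes depended on how the arrays were scaled, whereas the share of probes called varied little. The median difference over the tested probes was −0.23 (log2, leaf minus shoot) with the 75th percentile, −0.03 after normexp background correction, 0.11 after quantile normalization and 0.20 when arrays were scaled to their median. Leaf-rich probes made up 36.1% of the 2-fold differences under the main scaling. Normexp gave 43.1%, quantile normalization 52.2% and the median 52.9%. Normexp gave 4580 leaf-rich and 6036 shoot-rich probes, quantile normalization gave 7833 and 7163, and the median gave 8146 and 7263. The share of probes called was 81.5% with normexp, 83.9% with quantile normalization and 84.9% with the median. An excess of shoot-rich over leaf-rich probes can therefore not be stated independently of the scaling. Where all 10 arrays exceeded background, 4744 probes were leaf-rich and 6147 shoot-rich, a leaf-rich share of 43.6%.

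The differences had long tails in both directions. The 25th and 75th percentiles of the difference were −1.29 and 0.58 (log2), while the 1st percentile was −8.76 and the 99th was 6.01. At least 16-fold differences were found for 974 probes higher in leaf and 2031 lower, and at least 64-fold differences for 329 and 990. Counting probes well above background in both tissues, 16-fold differences stood at 796 higher and 1033 lower, and 64-fold differences at 229 and 423. The probes were also put in 5 equal bins by their mean level over the 10 arrays. More of these arrays are leaf than shoot, so the mean of a shoot-rich probe is pulled down and that of a leaf-rich probe up. The shares by bin are thus partly set by the binning and are a description only. In the lowest bin, with levels of −9.86 to −5.26, 3417 of 6516 probes were well above background on all 4 arrays of the comparison, and of these 9.45% were leaf-rich and 33.5% shoot-rich. Over the whole lowest bin the shares were 10.2% and 52.2%, but the other probes there could enter only if 1 tissue was bright enough. In the highest bin, with levels of 0.71 to 7.44, all 6516 probes were measured in both tissues, 22% leaf-rich and 18.5% shoot-rich.

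**Figure D1:**
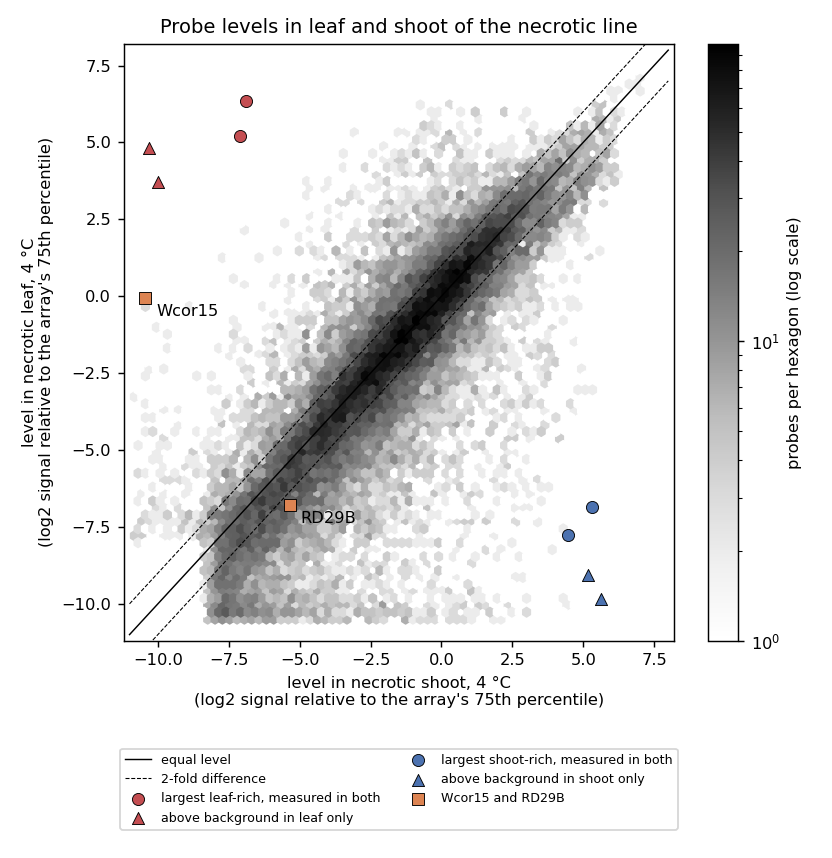
Mean level of each tested probe in necrotic leaf (vertical) and necrotic shoot (horizontal), as log2 signal relative to the array's 75th percentile, with probes per hexagon in grey, lines of equal level and of 2-fold difference, and the named probes as coloured marks. The largest leaf-rich contig, wheat0130Contig15419, lies at 6.35 in leaf and −6.88 in shoot, and the cloud reaches far to both sides of the line of equal level.

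No table at hand names a gene for most probes, which carry the names of expressed-sequence contigs or clones, so gene groups cannot be counted here. For such probes the largest differences in each direction are described. Among probes measured in both tissues, the largest leaf excess belonged to wheat0130Contig15419, a contig with no gene name here. Its level was 6.37 and 6.34 in necrotic leaf and −6.82 and −6.94 in necrotic shoot. Both leaf arrays were at the bright end of the scale and both shoot arrays toward its dim end, with no overlap. The difference was 13.24 (SE 0.07), which is 9672-fold (limma, adjusted p = 2.28e-10). The contig stood at 4.23 and 4.42 in wild-type leaf and at −1.84 and −1.83 in wild-type shoot, a 71.6-fold difference in the same direction. Necrotic leaf without cold had 3.86 and 3.87, so every leaf array exceeded every shoot array.

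The contig probe whsh_allContig941 came next, at 5.23 and 5.21 in necrotic leaf and −7.13 and −7.07 in necrotic shoot. The groups were far apart, with a difference of 12.32 (SE 0.043), 5128-fold, at an adjusted p of 1.04e-10 (limma). Wild-type leaf had 3.24 and 3.27 and wild-type shoot −2.72 and −2.65, a 61.4-fold difference. In both contigs the necrotic shoot was the lowest of all groups, below the wild-type shoot, and the cold necrotic leaf the highest. The level of whsh_allContig941 in necrotic leaf at 23 °C was 1.47 on both arrays.

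The largest shoot excess among probes measured in both tissues was that of wheat0130Contig679. Its level was −7.65 and −7.86 in necrotic leaf and 4.45 and 4.47 in necrotic shoot. The 2 tissues did not overlap, and the difference of −12.21 (SE 0.51) was 4747-fold at an adjusted p of 5.28e-07 (limma). In the wild-type line the leaf had −8.69 and −7.09, above background on 1 of 2 arrays, and the shoot 3.73 and 3.74. The tissue difference of this contig was not shown to differ between the lines (−0.59, SE 0.72, adjusted p = 0.506, limma).

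Close behind was wheat0130Contig13913, at −6.90 and −6.82 in necrotic leaf and 5.27 and 5.35 in necrotic shoot. Its difference was −12.17 (SE 0.34), 4606-fold, with an adjusted p of 6.77e-08 (limma). Wild-type leaf had −7.61 and −6.50, above background on 1 of 2 arrays, and wild-type shoot was bright too, at 5.60 and 5.63. Neither shoot-rich contig was well above background in necrotic leaf at 23 °C. The difference between the lines was 0.50 (SE 0.48) for wheat0130Contig13913 and missed the threshold (adjusted p = 0.399, limma).

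A smaller set of probes was measured in 1 tissue only, well above background on both of its arrays and on neither array of the other. Leaf alone had 328 such probes and shoot alone had 2266. Of these, 322 in leaf and 2093 in shoot also passed the test of the leaf-shoot difference. The values that follow, and later counts of probes measured in 1 tissue only, are for these called probes. These probes were mostly dim, with a median level of −5.70 in leaf for the leaf set and −6.01 in shoot for the shoot set. For them a fold is only a lower bound, the level in the bright tissue against the lowest level that counted as above background in the other, or the probe's own if higher. An adjusted p given beside a bound is that of the difference between the levels as read, and does not test the bound. Probes named for the largest bounds were chosen by size, so their p-values are a description only. The median bound was 6.81-fold for the leaf set and 4.37-fold for the shoot set. At least 16-fold bounds were reached by 111 leaf and 602 shoot probes. The same one-tissue pattern was present in the wild-type line for 164 leaf and 1591 shoot probes. Of the leaf set 56 probes were above background on both wild-type shoot arrays, and of the shoot set 98 were so on both wild-type leaf arrays. With normexp 328 probes were called in leaf only and 1236 in shoot only. The lowest level well above background was −8.18 and −8.14 on the necrotic leaf arrays and −8.61 and −8.40 on the necrotic shoot arrays. Detection was thus not equal between the slides, and its part in the 2 counts was not tested.

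The largest bounds in leaf belonged to whsh_allContig412 and rwhv3n18a16_240. For whsh_allContig412 the level was 4.86 and 4.75 in necrotic leaf and −10.32 and −10.33, not well above background, in necrotic shoot. That is at least 10175-fold higher in leaf (adjusted p = 2.28e-10, limma). In the wild-type line this contig was measured in both tissues, at 3.51 and 3.34 in leaf and −2.39 and −2.38 in shoot, a 56.3-fold difference. The clone probe rwhv3n18a16_240 repeated the pattern, with 3.69 and 3.72 in necrotic leaf against −9.94 and −10.01, not well above background, in necrotic shoot. It was at least 4754-fold higher in leaf (adjusted p = 1.04e-10, limma), and its wild-type levels of 1.42 and 1.40 in leaf and −4.10 and −4.11 in shoot were 45.7-fold apart. Both probes were thus above background in wild-type shoot and not in necrotic shoot.

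In shoot the largest bounds were those of wheat0130Contig6573 and wheat0130Contig7727. The level of wheat0130Contig6573 was −9.76 and −9.91 in necrotic leaf, not well above background, and 5.65 and 5.63 in necrotic shoot. It was at least 14251-fold lower in leaf (adjusted p = 2.83e-08, limma), and at least 5086-fold lower in leaf in the wild-type line. The level of wheat0130Contig7727 was −9.25 and −8.88 in necrotic leaf, not well above background, and 5.16 and 5.15 in necrotic shoot, at least 10209-fold lower in leaf (adjusted p = 1.04e-08, limma). Wild-type shoot had 5.55 and 5.70, and the bound in the wild-type line was 13000-fold. This contig was dim but well above background on both arrays of necrotic leaf at 23 °C, at −6.51 and −6.26.

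The size of these extreme folds varied between the alternatives, while their direction and call did not. The probes were chosen for extreme differences, so a change of direction or call was unlikely from the outset. With normexp, which here also started from the median spot signal and added an offset, wheat0130Contig15419 was 1923-fold, whsh_allContig941 1070-fold, wheat0130Contig679 533-fold and wheat0130Contig13913 740-fold apart. The normexp bounds were 932-fold for whsh_allContig412, 350-fold for rwhv3n18a16_240, 1174-fold for wheat0130Contig6573 and 779-fold for wheat0130Contig7727. Quantile normalization gave higher values for the leaf-rich probes, 18858-fold for wheat0130Contig15419 and 10073-fold for whsh_allContig941, with bounds of 17823-fold for whsh_allContig412 and 7778-fold for rwhv3n18a16_240. For the 4 shoot-rich probes it gave 3677-fold (wheat0130Contig679), 3717-fold (wheat0130Contig13913), 11656-fold (wheat0130Contig6573) and 8212-fold (wheat0130Contig7727).

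**Figure D2:**
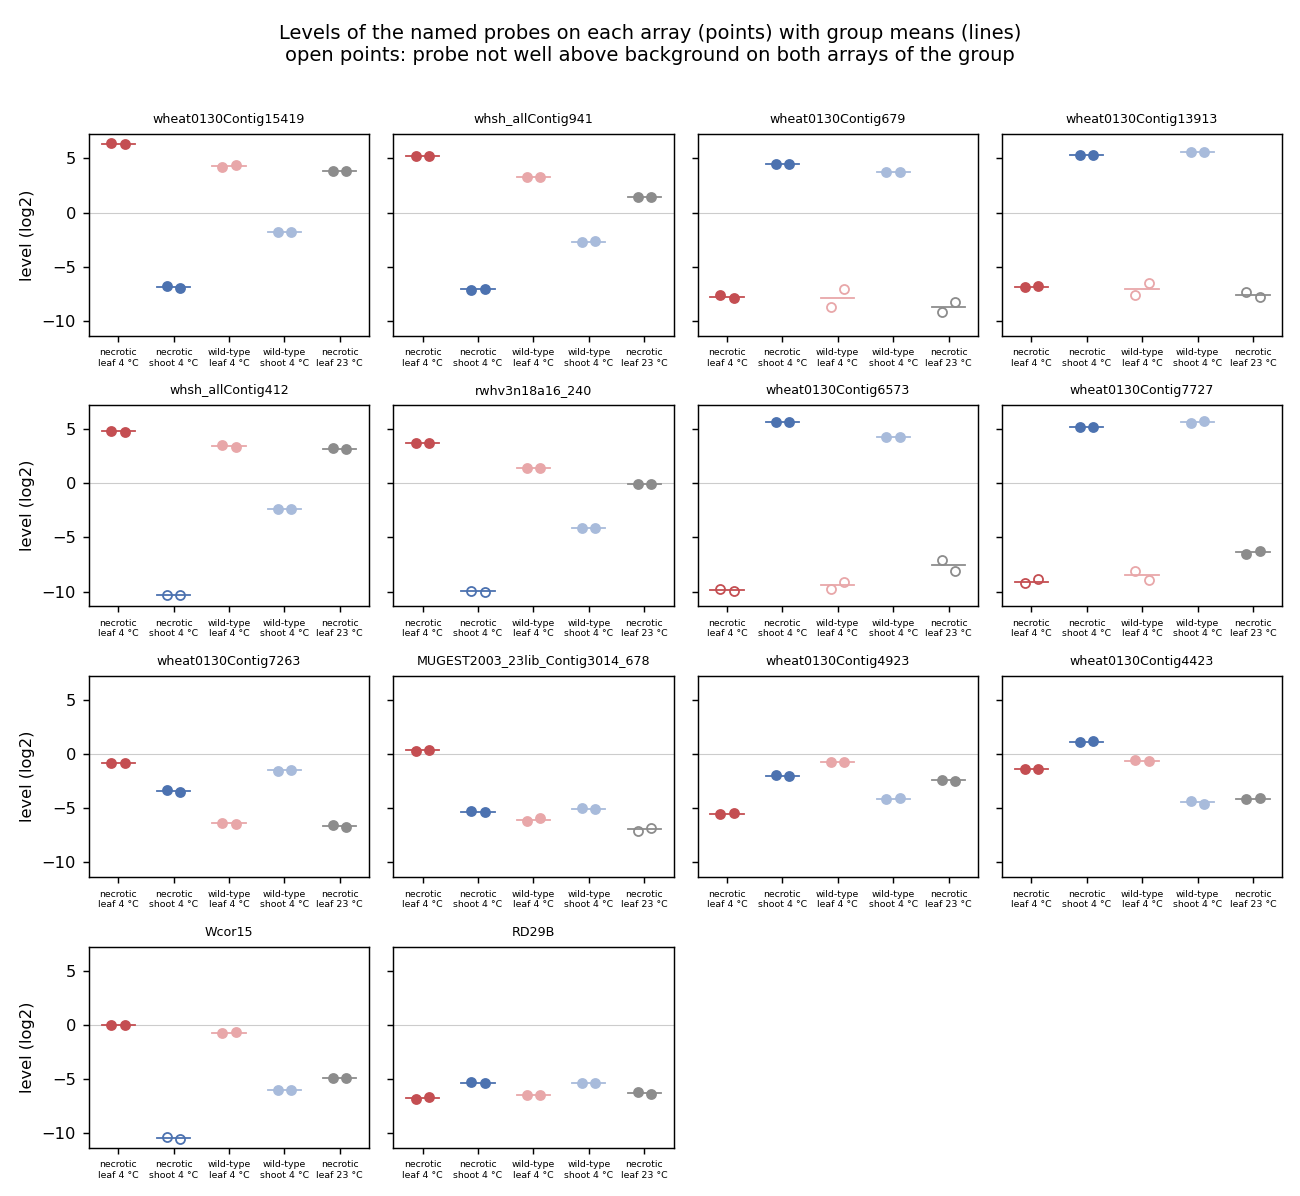
Levels of the named probes on each of the 10 arrays (log2 signal relative to the array's 75th percentile, 1 point per array with a line at the group mean, open where the group did not have both arrays well above background). For the leaf-rich contigs wheat0130Contig15419 and whsh_allContig941 the 2 necrotic shoot arrays (−6.82 to −7.13) lie below the wild-type shoot arrays (−1.83 to −2.72).

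The array held 6 gene-named probes, all of them on the list of cold-responsive genes, and 2 were measured here. Wcor15 is a wheat gene induced by cold, and its protein is targeted to the chloroplast. Its level was −0.06 on both necrotic leaf arrays and −10.37 and −10.52, not well above background, on the necrotic shoot arrays. Wcor15 was at least 349-fold higher in necrotic leaf than in necrotic shoot. The adjusted p of 2.54e-10 (limma) is that of the difference between the levels as read, not of the bound. In the wild-type line, leaf had −0.78 and −0.71 and shoot −5.98 and −6.05, a measured 38.6-fold difference (adjusted p = 7.53e-10, limma). Necrotic leaf at 23 °C had −4.88 and −4.91, which was above both shoot groups. The Wcor15 bound in the necrotic line was 35.7-fold with normexp and 524-fold with quantile normalization.

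RD29B, whose Arabidopsis namesake is induced by abscisic acid, drought and salt, had the opposite direction and was dim in every group. Its level was −6.89 and −6.67 in necrotic leaf and −5.33 and −5.35 in necrotic shoot. Both leaf arrays were below both shoot arrays, a difference of −1.44 (SE 0.093), 2.71-fold lower in leaf, at an adjusted p of 5.56e-06 (limma). RD29B was 2.07-fold lower in leaf in the wild-type line too, at −6.47 and −6.45 in leaf and −5.40 and −5.42 in shoot. Relative to the median difference of all tested probes, RD29B stood at −1.20 with the 75th percentile, −0.43 with quantile normalization and −0.22 with normexp. Its fold was 1.25 with quantile normalization and 1.19 with normexp, and the call held in both. The remaining gene-named probes stayed at background on every array and went untested; they are DREB2A, DREB2B, RD29A and cor47. None of the listed defence or vernalization genes had a probe of that name (0 matched in each list).

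The 2 lists were then followed in the groups whose levels did not enter the differences behind the lists. Those groups entered only the estimate of spread. Leaf-rich probes had a median level of 0.12 in necrotic leaf and −2.38 in necrotic shoot, which only describes the choice. In the wild-type line the medians of the same 5438 probes were 0.08 in leaf and −2.74 in shoot. Shoot-rich probes had a median of −5.15 in necrotic leaf and −2.03 in necrotic shoot, and of −5.29 in wild-type leaf and −1.79 in wild-type shoot. Over all tested probes the medians were −2.05 in wild-type leaf and −1.81 in wild-type shoot. In necrotic leaf at 23 °C, on slide 1, the leaf-rich probes had a median of −0.29 and the shoot-rich probes −4.68, against −1.96 for all tested probes. The leaf taken without cold thus stood with the cold leaf on both lists. Of the leaf-rich probes 91.4% were above background on both wild-type shoot arrays, and 71.1% of the shoot-rich probes were so on both wild-type leaf arrays.

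A leaf-shoot comparison with means from other arrays, necrotic leaf at 23 °C against wild-type shoot, gave the counts behind this. Of 32364 probes tested there, 24.2% were higher and 31.4% lower in leaf by 2-fold or more. Of the leaf-rich list 4059 probes (74.6%) were higher and 225 (4.14%) lower. Of the shoot-rich list 7043 (73.1%) were lower and 286 (2.97%) higher. That comparison changes line, temperature and slide along with tissue, and these cannot be told apart in it. The leaf-rich probes shared made up 51.8% of the higher calls there, and the shoot-rich probes shared 69.3% of the lower calls.

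Probe names begin with a stem, such as wheat0130Contig, whose meaning the files do not give, and the share of leaf-rich and shoot-rich probes differed widely between stems. Among 42 stems with at least 100 tested probes, the leaf-rich share ran from 6.33% to 50.4% and the shoot-rich share from 14% to 47.6%. At one end stood whsh_allContig, the stem of whsh_allContig941 and whsh_allContig412. Of its 928 tested probes 468 (50.4%) were leaf-rich and 130 (14%) shoot-rich, with a median difference of 1.07, against −0.23 for all tested probes. The stem rwhsh had 39.2% leaf-rich and 16.7% shoot-rich of 102 probes, with a median of 0.78. At the other end stood MUG, with 80 leaf-rich (6.33%) and 602 shoot-rich (47.6%) of 1264 tested probes and a median of −0.92. MUGEST is a stem of its own, with 21.6% leaf-rich and 24.7% shoot-rich of 6139 tested probes.

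The leaning of both extreme stems was present under the 4 scalings compared. The leaf-rich share of whsh_allContig was 48.2% to 57%, where the share over all tested probes was 14.1% to 25%. The shoot-rich share of MUG was 37.3% to 47.6%, where that over all tested probes was 18.5% to 29.6%. Neither stem was dim: the median mean level was 0.74 for whsh_allContig and 0.41 for MUG, against −1.97 for all tested probes. The same leaning was seen on the wild-type arrays, with 53.7% leaf-rich and 16.1% shoot-rich probes for whsh_allContig and 9.02% and 55.4% for MUG. For the stems whei and rwhr the sign of the median turned with the scaling, and no direction is given.

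**Figure D3:**
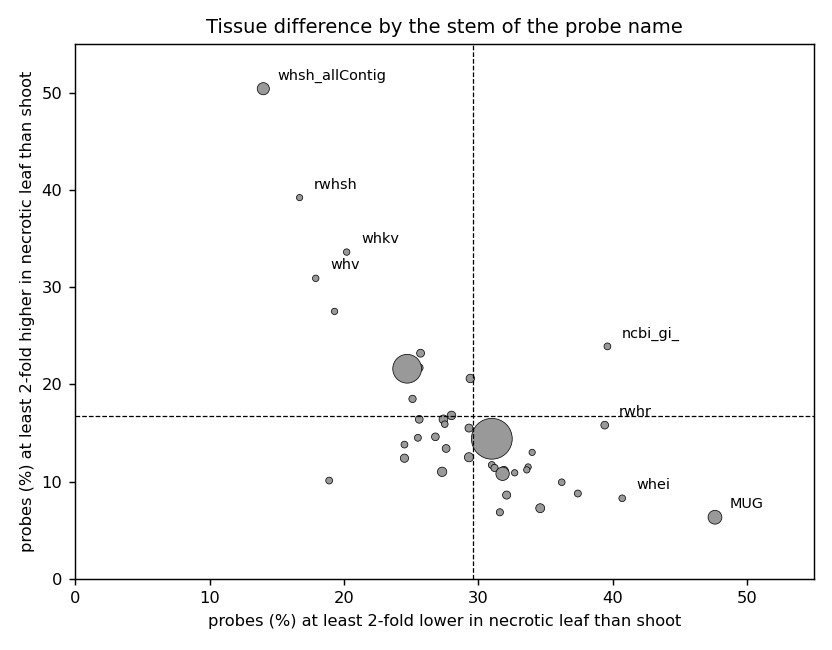
Share of tested probes at least 2-fold higher (vertical) and lower (horizontal) in necrotic leaf than in necrotic shoot, in percent, with 1 point for each of the 42 name stems and its size by the number of probes. The stem whsh_allContig stands at 50.4% leaf-rich and MUG at 47.6% shoot-rich, and dashed lines mark the shares over all tested probes (16.7% and 29.6%).

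The wild-type line gave the same tissue contrast with means from other arrays, which entered the necrotic comparison only through the estimate of spread. In each tissue they shared the slide and the weeks of cold with the necrotic arrays. What the lines share can therefore not be assigned to tissue alone. Of 32489 probes tested there, 7794 (24%) were leaf-rich and 11297 (34.8%) shoot-rich by the same criteria. In the necrotic line 4662 of the leaf-rich probes were also leaf-rich in the wild-type line, which was 85.7% of the necrotic and 59.8% of the wild-type list. Of the shoot-rich probes 8374 were shared, 86.9% of the necrotic and 74.1% of the wild-type list. With each comparison fitted on the arrays of its own groups only, 4656 leaf-rich and 8359 shoot-rich probes were shared. The lists were shorter in the necrotic line in both directions. Leaf-rich in the necrotic line and on neither list of the wild type were 693 probes, of which 349 had a called tissue difference between the lines of at least 2-fold. Of 1172 such shoot-rich probes 529 had one. In turn 3042 wild-type leaf-rich and 2840 wild-type shoot-rich probes were on neither list of the necrotic line, and 1458 and 1069 of them had a called, at least 2-fold smaller difference there. The remainder crossed a threshold in 1 line without a difference of that size between the lines.

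Differences between leaf and shoot were smaller in the necrotic line. Over 32014 probes tested in both lines, the SD of the leaf-shoot difference was 2.39 for the necrotic and 2.82 for the wild-type line, and the median absolute difference was 0.91 and 1.29. The differences of the lines correlated across these probes at r = 0.905, and probes are not independent replicates. The slope was 0.77 for necrotic on wild type and 1.07 for wild type on necrotic. Either slope also depends on the scatter between the lines, so 0.77 is not a ratio of sizes. The order of the SDs was the same with normexp (1.70 and 2.05) and with quantile normalization (2.38 and 2.78). Across 37775 probes, leaf and shoot levels correlated at r = 0.856 in the necrotic line and at r = 0.804 in the wild-type line.

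**Figure D4:**
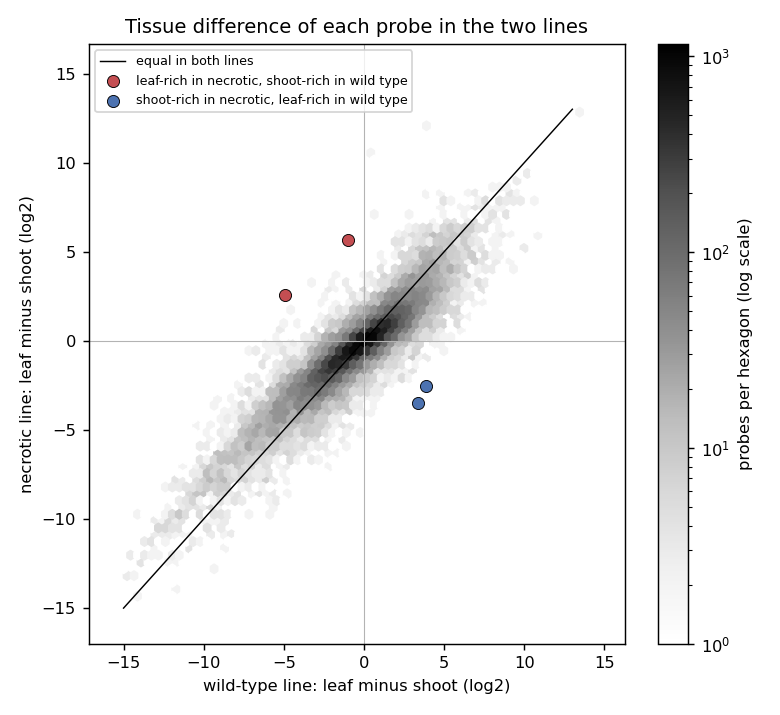
Leaf minus shoot difference (log2) of each probe in the necrotic line (vertical) and the wild-type line (horizontal), for the 32014 probes tested in both, in grey by probes per hexagon. The slope is 0.77 for necrotic on wild type and 1.07 for wild type on necrotic, and a line marks equal differences. The 4 coloured marks are named probes with opposite tissue differences, such as wheat0130Contig7263 at 2.59 and −4.90.

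The difference of the tissue difference was tested probe by probe, as necrotic leaf minus shoot less wild-type leaf minus shoot. A slide effect common to both lines cancels in this value, since each tissue had both lines on 1 slide. Of 33051 probes, 21434 (64.9%) passed the test, 4458 (13.5%) with an at least 2-fold higher value and 4235 (12.8%) with an at least 2-fold lower one. To ask whether differences shrank or grew, probes were grouped by their mean difference over both lines, a contrast that is orthogonal to the tested one. On average over the lines 6655 probes (20.1%) were leaf-rich and 10780 (32.6%) shoot-rich. Of these leaf-rich probes 2237 (33.6%) had an at least 2-fold smaller difference in the necrotic line and 590 (8.87%) a larger one. Of the shoot-rich probes 3117 (28.9%) had a smaller difference and 778 (7.22%) a larger one. Restricted to probes above background on all 8 cold arrays, the shares were 33.4% smaller and 7.68% larger for leaf-rich, and 28.2% smaller and 5.18% larger for shoot-rich probes. Smaller differences outnumbered larger ones under the other scalings too, with 1484 against 403 leaf-rich and 2317 against 392 shoot-rich probes after normexp, and 2648 against 736 and 2504 against 635 after quantile normalization.

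The shoot arrays carried more of this than the leaf arrays. Among the leaf-rich probes 1741 (26.2%) were at least 2-fold higher in necrotic than in wild-type shoot and 421 (6.33%) lower, with a median of 0.42. In leaf 492 of them (7.39%) were higher in the necrotic line and 372 (5.59%) lower, with a median of −0.16. Over all probes tested, 11.3% were higher and 10.4% lower in necrotic shoot, and 7.11% were higher and 3.32% lower in necrotic leaf. Among the shoot-rich probes 2517 (23.3%) were lower in necrotic than in wild-type shoot and 893 (8.28%) higher, with a median of −0.45. In leaf 1010 of these (9.37%) were higher in the necrotic line and 310 (2.88%) lower, with a median of 0.07. The list shares are of whole lists, which include probes not tested in a tissue. Of shoot-rich probes above background on all 8 cold arrays, 9.34% were higher and 3.11% lower in necrotic leaf, and 5.75% and 21.2% in necrotic shoot. For leaf-rich probes these shares were 5.86% and 4.7% in leaf, and 26.1% and 6.06% in shoot. Among leaf-rich probes, higher values in necrotic shoot outnumbered lower ones, and among shoot-rich probes lower values outnumbered higher ones.

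For shoot-rich probes the share with a smaller difference in the necrotic line was higher where the tissue difference was larger. Among shoot-rich probes with a mean difference of 2- to 4-fold, 16.3% had a smaller difference in the necrotic line and 5% a larger one (4880 probes). The share with a smaller difference was 31.6% at 4- to 16-fold (3643 probes), 48% at 16- to 64-fold (1128 probes) and 55.8% above 64-fold (1129 probes). The share with a larger difference was 8.21%, 10.9% and 9.92% at these sizes, so it too was above its value at 2- to 4-fold. The median line difference in shoot moved along, at −0.34, −0.46, −0.84 and −1.46, while in leaf it was 0.07, 0.10, 0.11 and −0.01. Where leaf was not above background, its line difference is not a measured one. Over the sizes, 3915, 2407, 594 and 421 probes were above background on all 8 cold arrays. Among those the smaller share was 16.2%, 35%, 52.5% and 65.3%, and the larger share 3.83%, 6.65%, 7.07% and 6.65%. Leaf-rich probes had no such order. Their share with a smaller difference was 29.1%, 39.9%, 34.4% and 37.4% over the same sizes, and the share with a larger difference was 4.79%, 9.68%, 21.1% and 18.5%. The contigs wheat0130Contig15419 and whsh_allContig941 belonged to the leaf-rich probes with a larger difference in the necrotic line, by 7.08 (SE 0.099, adjusted p = 8.86e-08, limma) and 6.38 (SE 0.061, adjusted p = 3.43e-08, limma) on the log2 scale. Both contigs were chosen for the largest necrotic leaf excess, which favours a larger difference in that line. Their p-values here are a description only.

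**Figure D5:**
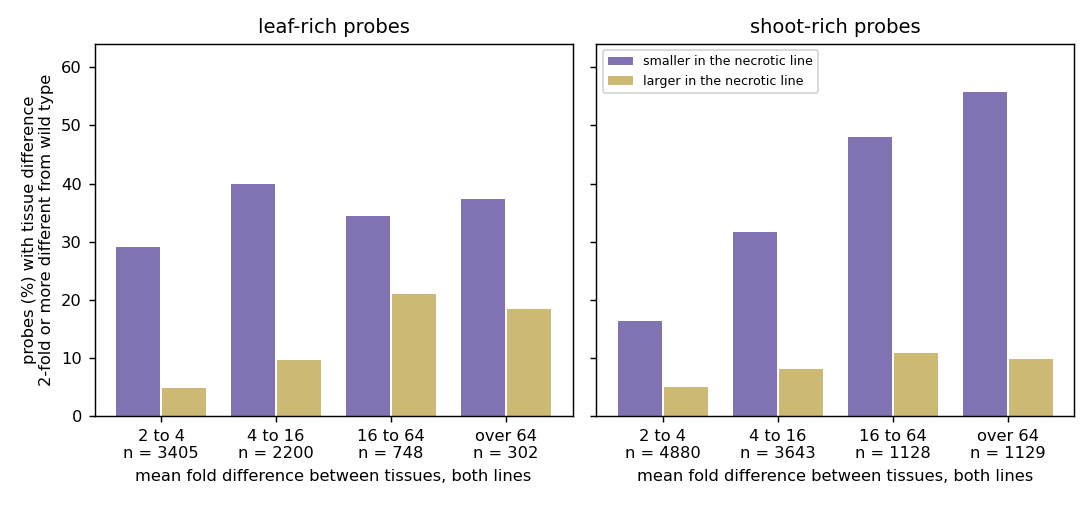
Share of probes (percent) with an at least 2-fold smaller or larger leaf-shoot difference in the necrotic than in the wild-type line, by the size of the mean difference over both lines. For shoot-rich probes the smaller share is 16.3% at 2- to 4-fold and 55.8% above 64-fold, while for leaf-rich probes it stays between 29.1% and 39.9%.

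A few probes had opposite tissue differences in the 2 lines. Leaf-rich in necrotic but shoot-rich in wild-type plants were 83 probes, 54 of them above background on all 8 cold arrays, with median differences of 1.60 (necrotic line) and −1.87 (wild-type line). Their median line difference, necrotic minus wild type, was 2.68 in leaf and −1.04 in shoot. The reverse pattern, shoot-rich in the necrotic and leaf-rich in the wild-type line, was found for 90 probes with medians of −1.65 (necrotic line) and 1.77 (wild-type line), and 72 of them were above background on all 8 arrays. Their median line difference was −0.81 in leaf and 2.65 in shoot. Since they were chosen for called differences of opposite sign, a large difference between the lines follows from the choice, and the p-values of those named next are a description only.

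The largest reversal towards leaf was that of wheat0130Contig7263, at −0.87 and −0.83 in necrotic leaf and −3.34 and −3.53 in necrotic shoot. In the wild-type line the order was turned, with −6.33 and −6.46 in leaf and −1.53 and −1.46 in shoot. Leaf was 6.01-fold higher in the necrotic and 29.8-fold lower in the wild-type line, and the tissue differences were 7.48 (SE 0.13) apart (adjusted p = 1.42e-07, limma). Necrotic leaf at 23 °C, at −6.54 and −6.74, was near wild-type cold leaf. A second such probe, MUGEST2003_23lib_Contig3014_678, had 0.31 and 0.39 in necrotic leaf and −5.25 and −5.40 in necrotic shoot, against −6.18 and −5.92 in wild-type leaf and −5.01 and −5.07 in wild-type shoot. Only the cold necrotic leaf was bright, and the tissue differences were 6.68 (SE 0.19) apart (adjusted p = 6.25e-07, limma). Leaf was 50.9-fold higher in the necrotic line but only 2.02-fold lower in the wild-type line, close to the 2-fold threshold and between dim levels.

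In the other direction, wheat0130Contig4923 had −5.55 and −5.49 in necrotic leaf and −1.98 and −2.04 in necrotic shoot. Wild-type leaf had −0.75 and −0.73 and wild-type shoot −4.17 and −4.06. Leaf was 11.4-fold lower in the necrotic and 10.4-fold higher in the wild-type line, −6.89 (SE 0.074) apart on the log2 scale (adjusted p = 4.22e-08, limma). The contig wheat0130Contig4423 stood at −1.41 and −1.37 in necrotic leaf and 1.13 and 1.17 in necrotic shoot, against −0.58 and −0.64 in wild-type leaf and −4.30 and −4.62 in wild-type shoot. Its necrotic shoot arrays were the brightest of all groups, and the tissue differences were −6.39 (SE 0.14) apart (adjusted p = 2.62e-07, limma). With normexp these differences between the lines were 5.45 for wheat0130Contig7263, 4.59 for MUGEST2003_23lib_Contig3014_678, −5.07 for wheat0130Contig4923 and −5.58 for wheat0130Contig4423. With normexp 29 and 40 probes had opposite tissue differences.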

How the data were processed

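Groups and replicate numbers came from the sample labels, with 2 arrays in each of 5 groups. The deposited scanner tables hold the authors' spot intensity values on a linear scale, background-subtracted and detrended within the array by Agilent Feature Extraction (10.5.1.1 per the file headers, 9.5 per the submitters' processing notes). The deposited series matrix holds the same processed intensity (largest relative difference 0), linear, uncentred and with no ratio, with column medians of 196.4 and 186.5 for necrotic leaf at 4 °C, 316.1 and 305.7 for necrotic shoot, 212.6 and 189.5 for wild-type leaf, 301.2 and 292.6 for wild-type shoot, and 104.8 and 106.3 for necrotic leaf at 23 °C.

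Control spots were left out and outlier-flagged spots (12 to 143 per array) set missing. Levels were log2 processed signals with each array's 75th percentile subtracted. A probe entered a comparison if 1 or more of its groups had both arrays well above background. All 10 arrays were fitted with 1 mean per group (lmFit and eBayes, limma 3.58.1, R 4.3.3, reading by data.table, version 1.17.8; 5 residual and 1.6 prior degrees of freedom, median residual SD 0.0773). Two-sided p-values were adjusted within each comparison over its tested probes (Benjamini-Hochberg), with calls at 0.05. The code was tested on simulated data. A probe not well above background on either array of a group has a bound only: the brighter mean is set against a floor in the dimmer group, taken on each array as the probe's own level or the lowest level well above background, whichever is higher, and averaged.

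The 0 matches of 37826 probe names to the reference genes (IWGSC CS RefSeq v2.1) left 6 gene names. Of the cold-responsive list 6 names matched and 2 were tested. The rule names these 6 whatever their result, and the 2 most different probes in each direction for probes measured in both tissues, for probes measured in 1 tissue, and for differences of opposite sign in the lines. Names in accession form (40) were passed over. The comparison, the lists and the tests were chosen with earlier results of these data known, and the grouping by size, by name stem and the 23 °C leaf against wild-type shoot comparison were added after the data were seen. Normexp used the median spot signal and median background, offset 50, because the tables hold no mean signal, which had been planned. Other alternatives were quantile normalization, scaling to the median, other filters on dim probes, flagged spots kept, an intensity trend, fewer arrays in the fit, a replicate block and each array left out. Same-numbered replicates did not deviate together (correlation 0.08 between necrotic leaf and shoot, −0.03 to 0.12 between all groups).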

Additional observations from a re-analysis of the deposited data

Results flagged for a closer look

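The tissue difference itself differed between the necrotic and the wild-type line, by the test of the difference between them (limma, adjusted p under 0.05). It was at least 2-fold higher in the necrotic line for 4458 probes and at least 2-fold lower for 4235. On average over the lines, leaf-rich probes had a smaller difference in the necrotic line in 2237 cases and a larger one in 590, and shoot-rich probes a smaller one in 3117 cases and a larger one in 778. Leaf-rich in the necrotic and shoot-rich in the wild-type line were 83 probes, and 90 probes had the reverse pattern, counts for which the choice by opposite sign fixes a difference between the lines.

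Single probes passed the same test. All but RD29B and Wcor15 were chosen for extreme differences in these data, which favours or fixes that outcome. The values of the probes so chosen are a description only. The necrotic minus wild-type value of the leaf minus shoot difference, on the log2 scale, was 7.08 for wheat0130Contig15419, 6.38 for whsh_allContig941, 7.48 for wheat0130Contig7263 and 6.68 for MUGEST2003_23lib_Contig3014_678. It was −6.89 for wheat0130Contig4923, −6.39 for wheat0130Contig4423 and −0.38 (adjusted p = 0.0384) for RD29B. The 3 probes not well above background in necrotic shoot have a bound only, at least 7.50 for whsh_allContig412, 6.70 for rwhv3n18a16_240 and 3.17 for Wcor15. Tissue, weeks of cold and slide change together in each line alike, and their part in these differences between the lines was not tested.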

How the results depend on the processing

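Counts of probes changed by less than 1.5 times for 259 of the 272 combinations of count and alternative run. With normexp, the counts beyond that were 6036 shoot-rich probes in the necrotic line, 2644 with an at least 2-fold lower tissue difference than in the wild-type line, 1236 measured in shoot only, 5268 shoot-rich in both lines, 29 and 40 with opposite tissue differences, 1484 leaf-rich with a smaller difference and 392 shoot-rich with a larger one. With probes above background on all 10 arrays, which tests fewer probes, they were 6147 shoot-rich, 5372 shoot-rich in both lines, 48 leaf-rich in the necrotic and shoot-rich in the wild-type line, and 1933 shoot-rich with a smaller and 318 with a larger difference. The cause of the normexp values was not tested. Within 1.5 times, the leaf-rich list still became the longer one with quantile normalization (7833 against 7163) and with scaling to the median (8146 against 7263). Many of the combinations only leave out 1 array or refit the same levels, so their number is no measure of stability. Leaving out 1 array at a time gave 5406 to 5440 leaf-rich and 9368 to 9586 shoot-rich probes in the necrotic line (10647 to 10801 and 14961 to 15334 called), 7684 to 7868 and 11027 to 11267 in the wild-type line, 4205 to 4756 and 4069 to 4343 for the difference between the lines, 303 to 386 in leaf only, 1961 to 2366 in shoot only, 4637 to 4668 and 8185 to 8353 shared, 77 to 82 and 82 to 97 opposite, 2192 to 2292 and 568 to 598 leaf-rich smaller and larger, and 2914 to 3326 and 708 to 844 shoot-rich smaller and larger. There the lone array is assumed to vary like the other groups. The replicate numbers are only numbers here (deviations correlated at 0.08). With the replicate block, 5437 probes were leaf-rich and 9627 shoot-rich, 11356 and 16008 called. All 190 values of named probes under an alternative kept their direction and call. All of these probes but RD29B and Wcor15 were chosen for extreme differences, which favours that outcome. Precision is limited by the number of arrays.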

Other observations

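Some contigs are carried by 2 probes, mostly with names that differ in a letter p or m, whose meaning the files do not give. Of 694 such contigs, 240 had both probes tested, 335 had 1 probe tested and 119 none. Among the 240 pairs, both probes were at least 2-fold different between necrotic leaf and shoot in 84, and in 75 of these (89.3%) the direction was the same. The leaf minus shoot difference of the paired probes correlated at r = 0.53 over the 240 pairs, which share the arrays and, by name, the contig. A single probe is therefore not always matched by its partner in size or direction.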
